A study of Mus musculus with 11 samples.

Results

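ZEB2 is a zinc finger transcription factor, and the data described here compare alveolar macs (AMs), the macs of the lung air spaces, with and without a deletion of its gene. All barcodes of the Zeb2KO AM library were set against all barcodes of the WT AM library, which gave 6583 and 7703 barcodes, or 14286 of the 51712 barcodes in the 11 libraries of the series. In WT mice both Zeb2 alleles were flanked by loxP sites (Zeb2fl/fl) without any CRE recombinase, and the Zeb2KO cells carried the same alleles with a CRE transgene. For that transgene the labels give Fcgr1-cre while the study's methods give Itgax-cre for the lung, and which applies was not settled. By the study's own account CRE-positive AMs included cells that had kept a Zeb2 copy, so the Zeb2KO values below are those of a mixed library and not of full loss in every cell. Itgax encodes CD11c, so CRE driven from it acts in every cell that makes CD11c and not in AMs alone. Both groups were littermates on a C57Bl/6 background, aged between 6 and 8 weeks, of mixed sex, and the number of mice behind each library was not given in the sources used here. Live cells positive for CD45, CD11c, SiglecF, F4/80 and CD64 were sorted from lung and profiled on the 10x Genomics droplet platform, with both libraries read on a NextSeq500. There was 1 library per genotype, so no difference below has a replicate check, and the intervals given cover counting error only.

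AMs take up inhaled particles and clear surfactant, the lipid and protein film of the air spaces. They depend on GM-CSF and TGF-beta signals and on the nuclear receptor PPARG, and in the mouse they are known for SiglecF, CD11c, the chitinase-like protein Chil3, the carbonic anhydrase Car4 and the ribonuclease Ear2. ZEB2 is known chiefly as a repressor that binds paired CACCTG-type E-boxes through its zinc finger clusters. ZEB1 and ZEB2 are classically known for repressing E-cadherin and other epithelial genes.

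The libraries held 29549635 UMIs (WT) and 38391128 UMIs (Zeb2KO), with medians of 3498 and 5533 UMIs per barcode, a ratio of 1.58. They shared 76 barcodes with each other, against 23 to 56 with the other libraries. The label was checked on cells thinned to 2000 UMIs each, which left 7125 WT and 6390 Zeb2KO cells. Chil3 was detected in 99.8% of WT and 99.4% of Zeb2KO cells, Car4 in 54.8% of WT and 50.3% of Zeb2KO cells and Ear2 in 95.9% of WT and 66.7% of Zeb2KO cells (without thinning, 99.5% and 99.95%, 68.6% and 67.2% and 98.1% and 84.9%). In the other tissues at most 1.05% of thinned cells had a Chil3 UMI, 0.401% a Car4 UMI and 40.2% an Ear2 UMI. Both libraries therefore carried the defining AM transcripts.

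The level of Zeb2 did not serve to check the deletion, since the floxed allele leaves a transcript with its 3′ end, which is the end counted. Zeb2 (chr2:44983632-45117395, minus strand, GRCm38/mm10) stood at 285 CPM in WT and 534 CPM in Zeb2KO. The related gene Zeb1 stood at 8.61 CPM in WT and 15.4 CPM in Zeb2KO and the antisense gene Zeb2os at 17.05 CPM in WT and 10.7 CPM in Zeb2KO. None of these 3 genes differed by 2-fold or more. CPM here are UMIs per 1000000 UMIs of the library after TMM scaling, which sets aside the genes that differ most before it matches the libraries. Whether the counting used strand was not given in the sources used here, so reads of Zeb2 and its antisense gene may have been mixed.

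In the summed counts, Zeb2KO AMs differed from WT AMs by rises of very large size in some genes and by smaller falls in others. A gene was called higher or lower when its level, plus 1 CPM, differed by at least 2-fold (1 or more on the log2 scale, up or down) and it reached 20 CPM in either library. Of the 5712 genes at that level, 368 were higher (6.44%) and 180 lower (3.15%) in Zeb2KO AMs, 548 in all (9.59%). A gene that reached 20 CPM in only 1 library could be called in that direction alone, which also shapes the counts of list members below. Scaled to UMI totals alone, 251 of 5821 genes were higher (4.31%) and 424 lower (7.28%), so the share of called genes that were higher went from 67.2% to 37.2%. The scalings differed by 0.30 on the log2 scale, so the smaller sets were nearly bound to lie inside the larger ones, as all 251 and all 180 did. The 10 genes with the largest rise in CPM held 5.90% of WT and 14.5% of Zeb2KO UMIs. None of the 548 intervals of the ratio reached no change, which the 2-fold limit at 20 CPM made nearly certain, so it is no check of the calls. The Poisson interval of the higher library reached at most 7.74% to either side of its value.

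The rises went further than the falls. Among the 368 higher genes 146 had a log2 ratio of at least 2, 86 of at least 3 and 58 of at least 4. Among the 180 lower genes 24, 5 and 4 fell by as much. In 40 of the higher genes WT AMs had under 1 CPM, whereas in only 4 of the lower genes did Zeb2KO AMs have under 1 CPM, and those 4 encode haemoglobins.

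**Figure D1:**
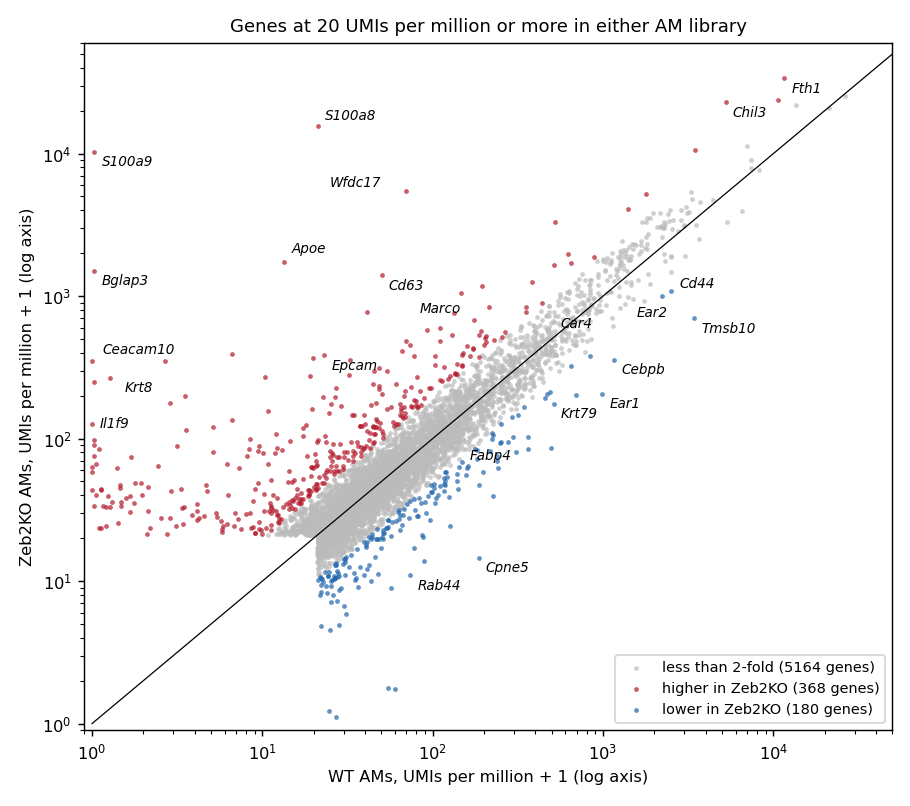
Levels of the 5712 genes at 20 CPM or more in WT (horizontal, log axis) and Zeb2KO AMs (vertical, log axis), each point a gene and the line equal levels. The 368 higher genes reach from 40 genes under 1 CPM in WT, S100a9 among them, to Fth1 at 11592 CPM in WT, and of the 180 lower genes 24 lie 2 or more below the line on the log2 scale.

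S100a9 had the highest log2 ratio of all genes at 50 CPM or more and S100a8 the third, behind Bglap3. They encode the calcium-binding subunits of calprotectin, an antimicrobial protein best known from neutrophils. S100a9 (chr3:90692632-90695721, minus strand) gave 1 and 357764 UMIs, or 0.0305 CPM (0.000773 to 0.170) in WT and 10324 CPM (10290.3 to 10358) in Zeb2KO with exact Poisson intervals. S100a8 (chr3:90668978-90670035, plus strand) gave 659 and 543052 UMIs, or 20.1 CPM (18.6 to 21.7) in WT and 15671 CPM (15629 to 15713) in Zeb2KO. The log2 ratios were 13.29 and 9.53 (13.14 and 9.25 with totals). Together they made up 0.00223% of WT and 2.35% of Zeb2KO UMIs. WT AMs had 659 S100a8 UMIs per S100a9 UMI and Zeb2KO AMs 1.52, so the low S100a8 level of WT was not accompanied by S100a9 in the ratio seen in Zeb2KO.

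The promoter windows of S100a9, S100a8 and the epithelial genes Epcam and Krt8 are printed because these genes carry the calprotectin and epithelial results and because ZEB factors bind CACCTG. Each is the RefSeq window of GRCm38.p6 from 250 bases before to 50 bases after the gene start, 5′ to 3′ on the gene's strand. CACCTG and its reverse complement CAGGTG, searched on both strands, are in capitals. The windows lie at chr3:90695672-90695971 (minus strand), chr3:90668821-90669120 (plus strand), chr17:87635729-87636028 (plus strand) and chr15:102004293-102004592 (minus strand).
S100a9: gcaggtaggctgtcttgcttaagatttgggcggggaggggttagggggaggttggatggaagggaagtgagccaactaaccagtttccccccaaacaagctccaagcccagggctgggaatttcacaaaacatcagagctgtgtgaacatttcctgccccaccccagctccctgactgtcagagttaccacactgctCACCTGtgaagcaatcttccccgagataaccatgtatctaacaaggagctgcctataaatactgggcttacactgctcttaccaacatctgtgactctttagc
S100a8: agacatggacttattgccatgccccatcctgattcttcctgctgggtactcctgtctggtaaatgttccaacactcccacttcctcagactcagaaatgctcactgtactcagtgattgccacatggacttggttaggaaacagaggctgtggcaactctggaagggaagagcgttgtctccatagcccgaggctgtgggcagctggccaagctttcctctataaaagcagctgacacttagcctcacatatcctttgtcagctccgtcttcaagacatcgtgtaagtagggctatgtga
Epcam: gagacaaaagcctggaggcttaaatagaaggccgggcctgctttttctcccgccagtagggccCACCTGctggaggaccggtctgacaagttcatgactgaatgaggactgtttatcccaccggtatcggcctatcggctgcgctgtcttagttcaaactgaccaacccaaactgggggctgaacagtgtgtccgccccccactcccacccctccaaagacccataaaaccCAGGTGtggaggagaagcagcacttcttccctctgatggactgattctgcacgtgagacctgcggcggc
Krt8: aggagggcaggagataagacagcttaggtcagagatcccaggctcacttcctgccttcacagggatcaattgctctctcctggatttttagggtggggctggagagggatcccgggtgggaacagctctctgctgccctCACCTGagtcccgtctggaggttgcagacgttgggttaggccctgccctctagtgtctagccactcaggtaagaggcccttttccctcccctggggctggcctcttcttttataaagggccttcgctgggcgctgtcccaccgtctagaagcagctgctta
Epcam held 2 matches, Krt8 and S100a9 1 each and S100a8 none. Of 32851 promoter windows of this length in the mouse, 20.2% held a match. Among genes with a window, 19.6% of 4472 at 20 CPM, 27.02% of the 285 higher genes and 23.6% of the 140 lower genes had at least 1. A match is a description of the letters and not a bound site.

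Among genes known from neutrophil granules and antimicrobial secretions, most of those that reached 20 CPM were higher. Of 33 listed genes, S100a8 and S100a9 included, 14 reached 20 CPM, of which 10 were higher and 1 lower, beside 6.44% and 3.15% of all genes at that level, with a median log2 ratio of 5.20 against 0.01 over all genes at that level. Ceacam10, a secreted member of the carcinoembryonic antigen family, had no UMI in WT and 349.7 CPM in Zeb2KO, at least 3816-fold higher against a floor of 3 UMIs per library. Cd177, a neutrophil surface glycoprotein, stood at 0.0305 CPM in WT and 249 CPM in Zeb2KO, which rested on 1 WT UMI. Wfdc17, a secreted protein of the WAP family, rose from 68.5 to 5457 CPM. The abundant lysozyme gene Lyz2 rose from 10671 to 23768 CPM, with a log2 ratio of 1.16 that was 0.86 with totals and then under the threshold. Lcn2 (0.0916 to 83.5 CPM), which encodes the iron-siderophore carrier lipocalin, Stfa1 (0.0305 to 75.03 CPM), an inhibitor of cysteine proteases, and S100a6 (18.9 to 365 CPM) were also higher and, as further members of the list, were chosen after their values were seen. The member that fell, likewise chosen afterwards, was Slpi (694 to 201 CPM), an inhibitor of neutrophil elastase. S100a9, Ceacam10, Cd177, Lcn2, Stfa1 and S100a6 reached 20 CPM only in Zeb2KO, so they could be called higher but not lower. The counts and the median were thus partly set by that level, and 19 members stayed below it in both libraries. Ceacam10 and Stfa1 have near-identical relatives, between which counts may have been split.

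Among 15 listed neutrophil markers, 7 picked out by hand were near 0 while others rose, and whether neutrophils were among the cells was not tested. Ly6g, Retnlg, Camp, Ngp, Ltf, Elane and Mpo summed to 6 UMIs in WT and 184 in Zeb2KO, 3 of the 7 had none in Zeb2KO, and the highest, the lactoferrin gene Ltf, reached 4.30 CPM. Of the 15 listed neutrophil markers 7 reached 20 CPM, with 5 higher and 0 lower, beside 6.44% and 3.15% of all genes. The higher ones were S100a8, S100a9, the chemokine receptor Cxcr2, the G-CSF receptor Csf3r (10.97 to 106 CPM) and the collagenase gene Mmp8 (19.98 to 64.4 CPM). Mmp8 was chosen after its value was seen. S100a9, Cxcr2, Csf3r and Mmp8 reached 20 CPM only in Zeb2KO, so they could be called higher but not lower. The summed level of the 15 went from 234 to 26621 CPM, of which S100a8 and S100a9 gave 15671 and 10324 CPM in Zeb2KO.

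The other genes among the 12 highest log2 ratios came from varied functions. Bglap3, an osteocalcin-related gene (chr3:88368616-88372743, minus strand), went from 1 UMI to 1507 CPM, a log2 ratio of 10.52, with near-identical relatives beside it on the chromosome. Apoe, which encodes the lipid carrier apolipoprotein E, rose from 12.5 to 1728 CPM, or 139-fold (126 to 153). AA467197, the mouse counterpart of C15orf48, rose from 1.68 to 350.3 CPM. Il1f9, the gene of the cytokine IL-36 gamma, had no WT UMI and 125 CPM in Zeb2KO, at least 1366-fold higher. Tarm1, an activating receptor of myeloid cells, stood at 0.0305 CPM in WT and 96.4 CPM in Zeb2KO, and Auts2, a nuclear protein linked to Polycomb complexes, at 0.0305 CPM in WT and 89.3 CPM in Zeb2KO, each with 1 WT UMI. Bglap3 was detected in 0.0140% of WT and 47.9% of Zeb2KO cells, Apoe in 1.74% of WT and 45.4% of Zeb2KO cells and AA467197 in 0.323% of WT and 32.1% of Zeb2KO cells after thinning (without it, 0.0130% and 59.9%, 2.73% and 60.2% and 0.662% and 52.2%). In other tissues at most 0.0456% of cells had a Bglap3 UMI, while Apoe was found in 62.9% or more of the cells of every other library.

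**Figure D2:**
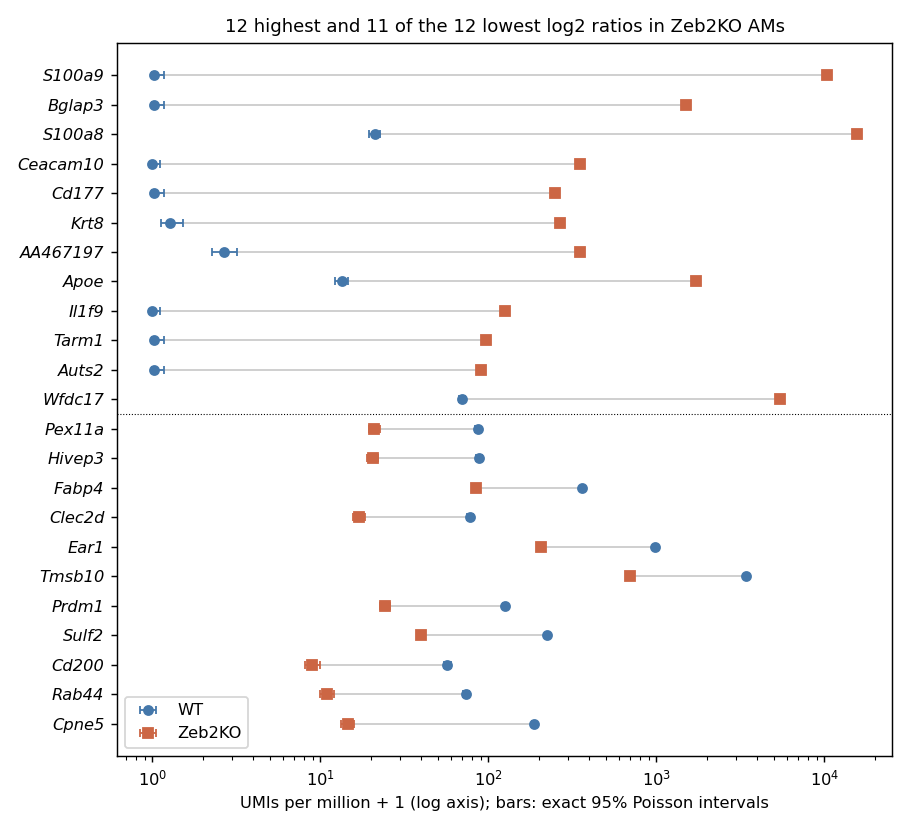
The 12 highest and 11 of the 12 lowest log2 ratios among genes of at least 50 CPM, in WT (circles) and Zeb2KO AMs (squares), on a log axis of CPM plus 1 with exact 95% Poisson intervals. S100a9, Bglap3, Ceacam10, Cd177, Krt8, Il1f9, Tarm1 and Auts2 sat under 1 CPM in WT, while each of the lowest shown kept at least 7.99 CPM in Zeb2KO.

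Several epithelial genes that ZEB factors classically repress were higher in Zeb2KO AMs. Of 47 such genes 13 reached 20 CPM, 9 were higher, none lower and 4 not called (6.44% and 3.15% of all genes at that level were higher and lower), and the other 34 stayed below that level in both libraries. Krt8 and Krt18 encode the paired keratins of simple epithelia. Krt8 (chr15:101996698-102004482, minus strand) rose from 0.275 to 267 CPM (9 and 9260 UMIs) and Krt18 from 0.122 to 42.8 CPM. Epcam (chr17:87635979-87651129, plus strand), an epithelial adhesion molecule, rose from 22.1 to 383 CPM, or 17.4-fold (16.1 to 18.7). The tight junction gene Tjp3 rose from 0.489 to 32.6 CPM. The other higher members, chosen after their values were seen, were the protease inhibitors Spint2 (9.77 to 156 CPM) and Spint1 (27.7 to 90.5 CPM), the tight junction gene Cldn1 (5.19 to 65.3 CPM), the junction protein Jup (39.9 to 111 CPM) and E-cadherin, Cdh1 (38.6 to 84.3 CPM). Krt19, the most abundant member, stood at 492 CPM in WT and 533 CPM in Zeb2KO. With totals 8 members were higher and 0 lower, and Cdh1 was under the threshold. Krt8, Krt18, Tjp3, Spint2 and Cldn1 reached 20 CPM only in Zeb2KO, so they could be called higher but not lower. The counts were thus partly set by that level.

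The share of cells with these transcripts differed between genes. Epcam was detected in 4.59% of WT and 40.5% of Zeb2KO cells and Krt8 in 0.0702% of WT and 21.6% of Zeb2KO cells (without thinning, 7.85% and 63.8% and 0.117% and 34.4%). In the other tissues at most 1.66% and 2.31% of cells had them. Krt18 was detected in 0.0281% of WT and 5.40% of Zeb2KO cells and Tjp3 in 0.0842% of WT and 4.99% of Zeb2KO cells (without thinning, 0.0519% and 12.9% and 0.195% and 14.6%), against at most 0.742% and 5.97% in the other tissues. Genes of lung epithelium itself gave no call. Of the 14 listed only 3 reached 20 CPM and none of them differed by 2-fold, beside 9.59% of all genes called. No call among 3 genes is what that share would give, so whether epithelial cells were present was not tested. The summed level of the 14 was 126 CPM in WT and 133 CPM in Zeb2KO. The club cell gene Scgb1a1 stood at 64.1 CPM in WT and 62.97 CPM in Zeb2KO.

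Calprotectin transcripts divided the Zeb2KO cells. Among WT cells thinned to 2000 UMIs 96.2% had no UMI of S100a8 or S100a9 and the highest cell had 3. Among Zeb2KO cells 33.8% had under 5, 2.57% (2.19 to 2.98) had 5 to 9 and 63.7% had 10 or more, with a median of 33 and a highest value of 347. S100a8 was detected in 3.79% of WT and 86.4% of Zeb2KO cells and S100a9 in 0.0140% of WT and 82.02% of Zeb2KO cells (without thinning, 7.22% and 94.5% and 0.0130% and 90.9%). In the other libraries at most 2.09% and 1.36% of cells had them. A detected cell had at least 1 UMI. Free RNA can give single UMIs where genes are this abundant, no cell type without these genes was there to measure it, and cells with under 5 UMIs are therefore not read as expressing them. The distribution of Zeb2KO cells had a low point between the cells with few UMIs and those with many.

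The other genes at 50 CPM or more in Zeb2KO and under 1 CPM in WT, 14 beside S100a9, were detected unevenly. For 13 of the 14 the mean UMI count was higher in Zeb2KO cells with 20 or more calprotectin UMIs than in those with under 5. The exception was C1qa, with means of 0.196 in the cells with under 5 and 0.0187 in those with 20 or more. Zeb2KO cells with 20 or more calprotectin UMIs had UMIs of a mean of 3.25 of the 14, and those with under 5 a mean of 0.37. The means of Krt8 were 0.000702, 0.0204 and 0.614 in WT, in the 2157 Zeb2KO cells with under 5 calprotectin UMIs and in the 3793 with 20 or more. Mean Tmsb10 UMIs per thinned cell were 7.56, 4.37 and 0.178 in the same order. The same means for Cpne5 were 0.418, 0.0918 and 0.00316, and for Chil3 11.2, 16.1 and 49.6. These are descriptions of cells divided by a measured value, and no test was made. The 14 genes were picked as near 0 in WT and high in Zeb2KO, and the same count over all genes was not made. The 13 of 14 is therefore no result about these genes.

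**Figure D3:**
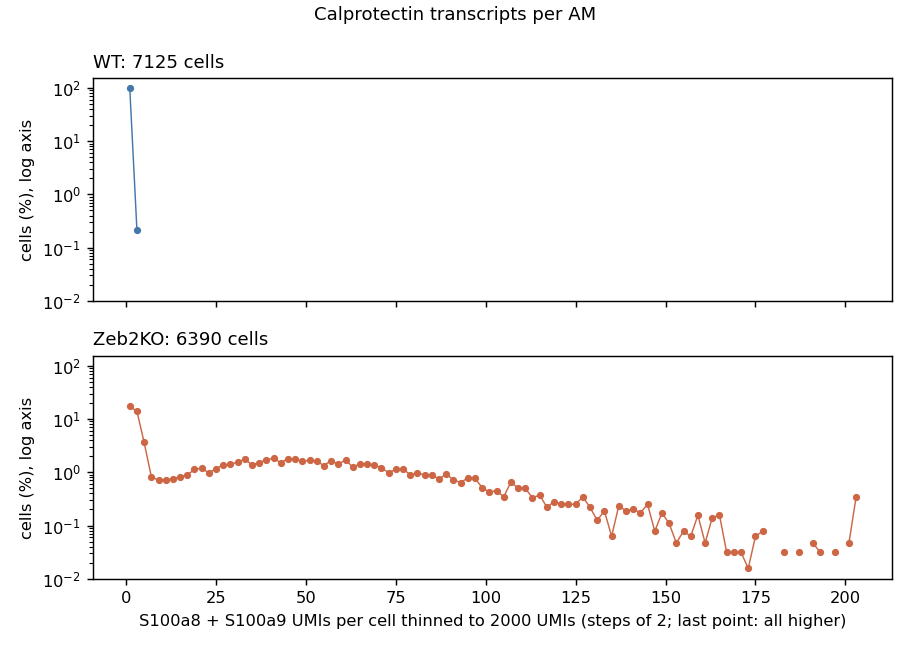
Share of thinned cells (percent, log axis) by their S100a8 and S100a9 UMIs in steps of 2, for the 7125 WT and 6390 Zeb2KO AMs. WT cells end at 3 UMIs, and Zeb2KO cells have one peak at the left edge, a low point near 10 and a broad second peak.

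AM identity genes moved in both directions. Of 36 listed genes 32 reached 20 CPM, with 7 higher and 7 lower and a median log2 ratio of 0.11 (5 higher and 10 lower with totals), beside 6.44% and 3.15% of all genes (4.31% and 7.28% with totals). Chil3 (chr3:106147554-106167564, minus strand) was already abundant in WT and rose from 5247 to 22981 CPM. Marco, a scavenger receptor, rose from 173 to 674 CPM, the lysosome-associated glycoprotein gene Gpnmb from 91.7 to 578 CPM and the zinc transporter Slc39a2 from 52.6 to 299 CPM. Itgax, which encodes the sorting marker CD11c, rose from 266 to 556 CPM, with a log2 ratio of 1.06 (0.76 with totals).

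Other identity genes fell. Ear1 and Ear2 encode eosinophil-associated ribonucleases with near-identical relatives. Ear1 fell from 987 to 205 CPM and Ear2 from 2214 to 1004 CPM. The log2 ratio of Ear2, -1.14, was -0.86 with each barcode weighted alike, -0.93 with barcodes thinned to 2000 UMIs and -0.66 without barcodes with 3 or more dividing-cell genes, and then under the threshold. Fabp4, a fatty acid-binding protein of macs and fat cells, fell from 361 to 83.2 CPM, and the keratin gene Krt79 from 513 to 175 CPM. Ear1 was detected in 78.8% of WT and 23.6% of Zeb2KO cells, Fabp4 in 39.8% of WT and 9.92% of Zeb2KO cells and Krt79 in 60.1% of WT and 24.2% of Zeb2KO cells (without thinning, 88.3% and 36.2%, 51.9% and 17.4% and 74.3% and 42.9%). Fabp1 (835 to 381 CPM) and the coagulation factor gene F7 (221 to 99.04 CPM) were also lower, whereas Fabp5 (651 to 1709.5 CPM) was higher, all 3 chosen after their values were seen.

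A last set of identity genes stayed within 2-fold. Car4 stood at 483 CPM in WT and 846 CPM in Zeb2KO, Pparg at 88.5 CPM in WT and 101 CPM in Zeb2KO, Plet1 at 779.9 CPM in WT and 1305 CPM in Zeb2KO, the tetraspanin Cd9 at 3347 CPM in WT and 4801 CPM in Zeb2KO and Siglecf, which encodes the other lung sorting marker, at 114 CPM in WT and 77.4 CPM in Zeb2KO. The sort selected on the CD11c and SiglecF proteins and not on these transcripts. Lpl, the secreted lipoprotein lipase, stood at 2506 CPM in WT and 1883 CPM in Zeb2KO.

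The deepest fall among genes of at least 50 CPM that encode no haemoglobin was in Cpne5, a calcium-dependent phospholipid-binding copine (chr17:29155556-29238167, minus strand). It stood at 185 CPM (180.4 to 189.7) in WT and 13.6 CPM (12.4 to 14.8) in Zeb2KO, a log2 ratio of -3.68. Next came Rab44 (72.8 to 10.01 CPM), a large Rab GTPase, and Cd200 (56.2 to 7.99 CPM), the ligand of an inhibitory receptor on myeloid cells. Sulf2, which removes sulfate from heparan sulfate, fell from 224 to 38.6 CPM, and Prdm1, the transcriptional repressor BLIMP1, from 125 to 23.2 CPM. Tmsb10 (chr6:72957347-72958748, minus strand), which encodes an actin-binding thymosin, fell from 3432 to 699 CPM and gave the largest fall in CPM of all genes. Clec2d (76.98 to 16.1 CPM), a lectin-like ligand of natural killer cell receptors, Hivep3 (86.97 to 19.5 CPM), a zinc finger protein, and Pex11a (85.6 to 20.03 CPM), a protein of peroxisome division, were also among the 12 lowest ratios. The hyaluronan receptor Cd44 fell from 2499 to 1079.5 CPM.

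Cpne5 and Tmsb10 were also detected in fewer cells. After thinning, Cpne5 was detected in 33.6% of WT and 3.13% of Zeb2KO cells and Tmsb10 in 99.1% of WT and 40.9% of Zeb2KO cells (without thinning, 51.05% and 5.79% and 97.8% and 51.97%). Of the 5 largest falls in CPM, 2 were in the ribosomal protein genes Rpl41 (6575 to 3953 CPM) and Rpl37a (5316 to 3311 CPM), neither of which reached 2-fold. The longest annotated transcript had a median length of 2276.5 bases among the higher genes, 3485.5 among the lower genes and 2961 among all genes at 20 CPM. With the median ratio of genes of like length taken off, 342 genes were higher and 171 lower, among them 317 of the 368 and 144 of the 180, and the higher genes Cd68, Fdps, Lyz2 and Zbp1 and the lower gene Stard4 (20.8 to 9.72 CPM), which encodes a sterol transfer protein, were no longer called.

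Most of the chemokine genes that reached 20 CPM were higher. Of 32 listed chemokine and receptor genes 18 stayed below 20 CPM and 14 reached it, with 11 higher and 1 lower under both scalings, beside 6.44% and 3.15% of all genes, and a median log2 ratio of 1.95. Cxcr2, the receptor for CXC chemokines that draw neutrophils, rose from 2.54 to 197 CPM and was detected in 0.477% of WT and 26.1% of Zeb2KO cells (without thinning, 0.948% and 49.9%). Cxcl16 rose from 2.17 to 87.8 CPM. Cxcr2 and Cxcl16 reached 20 CPM only in Zeb2KO and so could not be called lower. Of the genes for attractants of monocytes and other leukocytes Ccl2 rose from 31.9 to 355 CPM, Ccl9 from 26.2 to 226 CPM and the abundant Ccl6 from 3449 to 10574 CPM. Ccl3 (193 to 1180.5 CPM), Ccl4 (76.7 to 377 CPM) and Ccl7 (10.8 to 78.2 CPM) were higher as well, while Cxcl3 (27.98 to 7.88 CPM) fell, and these 4 were chosen after their values were seen.

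Most cytokine genes at 20 CPM stayed within 2-fold. Of 43 cytokine and cell death genes 30 reached 20 CPM, with 5 higher and 2 lower (3 and 3 with totals), beside 6.44% and 3.15% of all genes (4.31% and 7.28% with totals). The interleukin-1 genes Il1a (60.3 to 239.9 CPM) and Il1b (383 to 1252 CPM) rose, whereas Tnf fell from 238 to 68.1 CPM. Il6 (25.5 to 9.49 CPM), chosen after its values were seen, fell too. Ripk3, the kinase of necroptosis, rose from 3.27 to 26.8 CPM, and Zbp1, a sensor upstream of it, from 11.5 to 24.6 CPM, the latter under the threshold with totals.

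Several complement, MHC class II and monocyte or interstitial mac genes were higher in the sums, and for some of them the rise lay in a small set of cells. The C1q genes encode the chains of the first complement component. C1qa went from 0.0611 to 65.8 CPM, C1qb from 0.122 to 43.4 CPM and C1qc from 0.0611 to 39.3 CPM, each with 2 to 4 UMIs in WT. Of the 19 listed complement genes 11 reached 20 CPM and 8 were higher, and of the 16 listed MHC class II genes 8 reached it, with 5 higher and 1 lower, beside 6.44% and 3.15% of all genes. Of the 16 genes listed as markers of monocytes and interstitial macs 7 reached it and 7 were higher, while 9 stayed below it. Chil3, a defining AM transcript, was among the 7 and marks no other cell here. It gave most of the list's summed level of 5282 CPM in WT and 25000 CPM in Zeb2KO. The C1q genes reached 20 CPM only in Zeb2KO and so could not be called lower.

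Cells with 3 or more C1q UMIs made up 104 of the 6390 thinned Zeb2KO cells (1.63%, exact binomial interval 1.33 to 1.97) and 0 of the 7125 thinned WT cells, where a count of 0 allows a share of up to 0.0421% by the limit of 3 counts and 0.0518% by the exact binomial interval. They held 57.9% of H2-Aa, 52.6% of Cd74 and 51.6% of Ms4a7 UMIs of the thinned Zeb2KO cells. Their AM transcripts differed by gene. Mean Chil3 UMIs were 4.66 in them and 37.8 in the other Zeb2KO cells, and mean Car4 UMIs were 0.096 and 1.33. The means of Cd9 were 6.09 and 8.19 and those of Itgax 1.04 and 1.05. Without thinning, 139 of 6583 Zeb2KO barcodes met this limit, which was set after the data had been seen.

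The rises of H2-Aa, H2-Ab1 and H2-Eb1 rested on these cells and that of Cd74 in part, while those of Itgam and Apoe did not. No WT barcode met the limit, so barcodes were left out of the Zeb2KO library alone. With the 139 barcodes left out, H2-Aa (the class II alpha chain) stood at 39.1 CPM in WT and 35.6 CPM in Zeb2KO, against 39.2 CPM in WT and 126 CPM in Zeb2KO with them. The log2 ratio of H2-Ab1 went from 1.49 to -0.39, that of H2-Eb1 from 1.74 to -0.13 and that of Cd74, the invariant chain, from 2.42 to 0.89. The ratio of Itgam went from 4.78 to 4.59 and that of Apoe from 7.004 to 6.91. The count of higher members went from 5 to 1 among MHC class II genes and from 8 to 4 among complement genes. Of the former, Ifi30, chosen after its values were seen, had a log2 ratio of 1.33 with and without these cells. Among monocyte and interstitial mac markers the count of higher members went from 7 to 3, the AM transcript Chil3 among the 3. The complement and marker lists both hold the 3 C1q genes by which these cells were chosen. Itgam, the integrin chain CD11b, had risen from 0.794 to 48.1 CPM. H2-DMa (251 to 93.9 CPM), which loads peptides onto class II molecules, and the complement component C3 (28.04 to 169 CPM) moved in opposite directions with or without these cells, and both were chosen after their values were seen.

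Surface receptors of macs changed in both directions. Of 45 scavenger, lectin and phagocytic receptor genes 29 reached 20 CPM, with 10 higher and 3 lower (7 and 5 with totals), beside 6.44% and 3.15% of all genes (4.31% and 7.28% with totals). The lipopolysaccharide co-receptor Cd14 rose from 132 to 764 CPM, the lectin gene Clec4d from 21.8 to 194 CPM, the inhibitory Fc receptor gene Fcgr2b from 47.5 to 231 CPM and the lipid-sensing receptor Trem2 from 33.3 to 145 CPM. The lectin genes Clec4a2 (186 to 46.6 CPM) and Clec4a3 (197 to 57.02 CPM) fell, and as near-identical relatives chosen after their values were seen they are uncertain. Of 37 adhesion genes 23 reached the level, with 9 higher and 3 lower, to be read beside the same shares. The tetraspanin gene Cd63 rose from 49.1 to 1401 CPM, and was detected in 7.45% of WT and 75.8% of Zeb2KO cells (without thinning, 11.5% and 86.6%). Ms4a1, which encodes CD20 of B cells, rose from 0.672 to 29.5 CPM, the 1 of 9 measured B cell markers that reached 20 CPM. The summed level of the 9 went from 6.14 to 48.8 CPM. Below 20 CPM, Jchain, the joining chain of secreted antibodies, went from 0.0611 to 11.6 CPM and the antigen receptor gene Cd79a from 1.65 to 2.48 CPM, both chosen after their values were seen.

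Most lipid genes stayed within 2-fold. Of 43 genes of lipid uptake, storage and efflux 39 reached 20 CPM, with 6 higher and 2 lower (6 and 6 with totals), beside 6.44% and 3.15% of all genes (4.31% and 7.28% with totals), and a median log2 ratio of -0.06. Beside Apoe, Apoc1 (23.7 to 149 CPM), a companion apolipoprotein, Dgat2 (32.8 to 145 CPM), a triglyceride-making enzyme, and Pdk4 (7.36 to 83.5 CPM), an inhibitor of pyruvate dehydrogenase, were higher. Of 33 sterol and fatty acid synthesis genes 17 reached the level, with 2 higher and 2 lower (1 and 5 with totals). The desaturase gene Scd1 rose from 5.65 to 135 CPM. The sterol enzymes Fdps (19.6 to 47.3 CPM) and Idi1 (42.9 to 19.5 CPM) moved in opposite directions, the first under the threshold with totals. Of 40 lysosomal genes 38 reached the level, with 8 higher and none lower (4 and 0 with totals), among them the protease gene Lgmn (158 to 443 CPM) and Cd68 (205 to 520.1 CPM).

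The targets of BMP and TGF-beta signals in the Id family, which encode inhibitors of basic helix-loop-helix factors, rose together. Id1 rose from 68.9 to 481 CPM, Id2 from 146 to 1049 CPM and Id3 from 32.1 to 93.5 CPM, and Id2 was detected in 24.4% of WT and 67.3% of Zeb2KO cells (without thinning, 36.3% and 81.8%). Bmpr1a, a BMP receptor, rose from 4.83 to 22.1 CPM, and with totals it stood at 19.9 CPM in Zeb2KO and was not called. The GM-CSF receptor chains Csf2ra and Csf2rb, chosen after their values were seen, stood at 101 CPM in WT and 105 CPM in Zeb2KO and 286 CPM in WT and 311 CPM in Zeb2KO. Of the 26 genes of these pathways 18 reached 20 CPM, with 5 higher and none lower (3 and 2 with totals), beside 6.44% and 3.15% of all genes (4.31% and 7.28% with totals).

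Of 44 mac transcription factor genes 33 reached 20 CPM, with 4 higher and 3 lower, beside 6.44% and 3.15% of all genes. Cebpb, a factor of myeloid differentiation and of the inflammatory response, fell from 1156 to 355 CPM and was detected in 87.9% of WT and 46.98% of Zeb2KO cells (without thinning, 96.4% and 77.1%). Egr2, an early growth response factor, fell from 361 to 101 CPM and Egr1 from 306 to 79.7 CPM. Klf2, a factor of quiescent leukocytes, rose from 102 to 329.6 CPM. The ferritin heavy chain gene Fth1, which stores iron, rose from 11592 to 33862 CPM and was among the 5 largest rises in CPM.

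Heat shock genes were called, while cell cycle and housekeeping lists gave few calls. The heat shock genes Hspa1a (4.15 to 79.6 CPM) and Hspa1b (2.87 to 28.02 CPM), near-identical copies, rose. Of 29 immediate early and heat shock genes 26 reached 20 CPM, with 5 higher and 3 lower, and the counts of this paragraph stand beside 6.44% and 3.15% of all genes. Among 37 dividing-cell genes 16 reached it and 1, the checkpoint gene Bub1b (40.05 to 17.8 CPM), was lower. Cyclin-dependent kinase inhibitors and cyclins gave none of 9, ribosomal protein genes none of 83 and oxidative phosphorylation genes none of 75. Of 38 interferon-stimulated genes 10 reached it and Oasl2 (0.214 to 23.4 CPM) and Zbp1 were higher. Mitochondrially encoded genes made up 4.06% of WT and 4.28% of Zeb2KO UMIs.

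**Figure D4:**
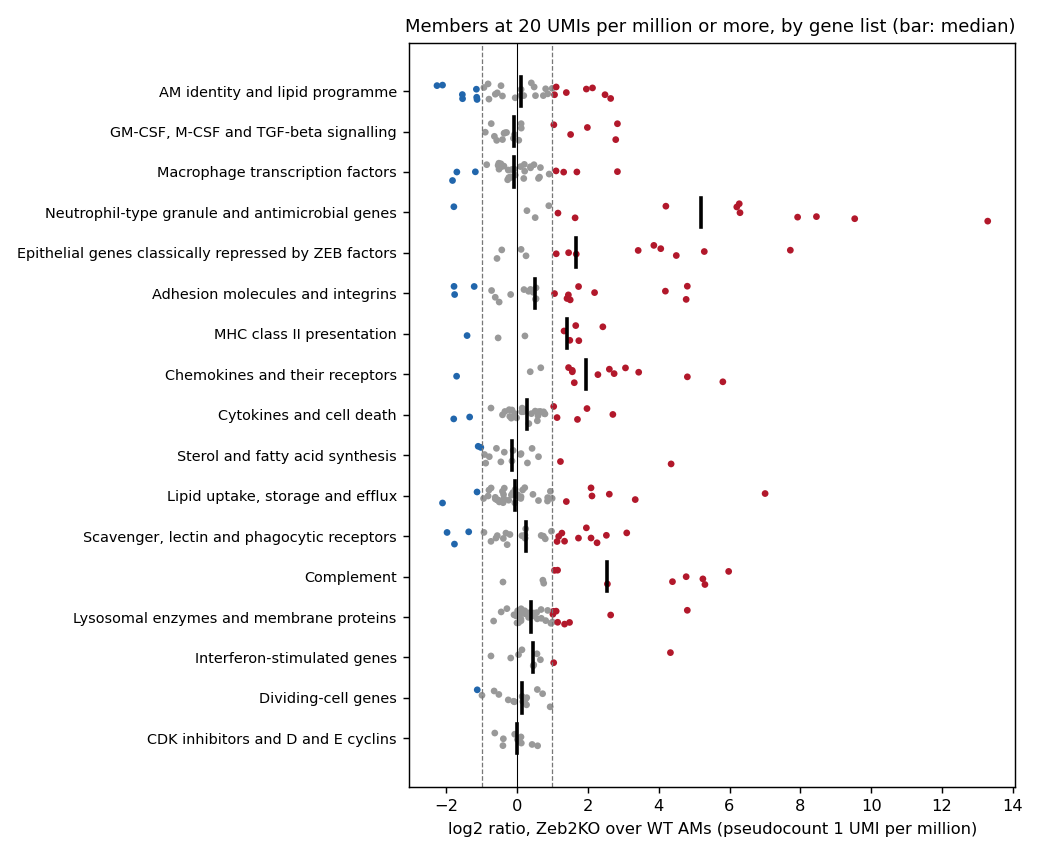
Log2 ratio of each listed gene at 20 CPM or more in either library (points), by list. Bars mark the list medians and dashed lines 2-fold. A gene that reached 20 CPM in Zeb2KO alone lies on the side of a rise. The granule and antimicrobial genes have a median of 5.20 and the complement genes of 2.55, whereas the medians of the identity, signalling, transcription factor, sterol, lipid and cell cycle lists lie between -0.14 and 0.15.

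Markers of other cells were called in some lists. Of those at 20 CPM, 7 of 7 markers of monocytes and interstitial macs were higher, the AM transcript Chil3 among them. So were 5 of 7 of neutrophils, 1 of 2 of eosinophils, 1 of 1 of dendritic cells and 1 of 1 of B cells. Erythroid markers were lower in 4 of 4, beside 9.59% of all genes called in either direction. Markers such as S100a9 (0.0305 CPM in WT) and Ms4a1 (0.672 CPM in WT) reached 20 CPM only in Zeb2KO and could not be called lower. The haemoglobin genes reached it only in WT, so these counts were partly set by the level required. Haemoglobin transcripts, which come from red cells, fell to near 0, Hbb-bs from 58.8 to 0.750 CPM and Hba-a1 from 53.3 to 0.779 CPM, and with barcodes of outlying depth or mitochondrial share left out none of the 4 haemoglobin genes was called. The WT level rested on few barcodes, since 1 thinned cell held 219 of the 293 Hbb-bs UMIs of the thinned WT cells. No marker of T and NK cells (summed 11.9 and 9.18 CPM) or of mast cells and basophils (1.04 and 5.31 CPM) reached 20 CPM, so none could be called. Of the latter Hdc, which makes histamine and was chosen after its values were seen, went from 0.397 to 4.70 CPM. Of the markers of endothelial cells and fibroblasts (34.9 and 49.1 CPM) 1 reached it and was not called. Among eosinophil markers Ear6 (8.46 to 48.1 CPM), a relative of Ear1 and Ear2, was higher, and Epx, Prg2 and Prg3 had no UMI. Among dendritic cell markers Cd24a (102 to 376 CPM) was higher. Their part in the other results was not tested.

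The same call was made in the other 4 tissues, each with 1 WT and 1 Zeb2KO library of its own. By the study's methods the CRE was Clec4f-cre for KCs and Fcgr1-cre for microglia, SMs and CMs. KC libraries were read on a NextSeq500 like those of AMs, and those of microglia, SMs and CMs on a HiSeq. In microglia 295 of 5925 genes were higher (4.98%) and 207 lower (3.49%), and in KCs 190 of 5509 were higher (3.45%) and 59 lower (1.07%). CMs gave 80 of 5268 in either direction (1.52%) and SMs 172 of 6142 (2.8%). The CRE-negative KC libraries from Zeb2fl/fl and Nr1h3fl/fl mice gave 87 of 5592 (1.56%), between mice that had no Zeb2 deletion. Among the genes named above, that pair also passed the call in Cebpb (2.56 on the log2 scale), Hspa1a (-3.51), Hspa1b (-2.88), Fcgr2b (-2.16), Fabp4 (-1.48), Ccl9 (-1.48), Apoe (-1.097), Cd9 (-1.97), Slpi (-7.797), Cd79a (-1.35), the MHC class II genes Cd74, H2-Aa, H2-Ab1 and H2-Eb1 (-1.32 to -1.57) and the haemoglobin genes Hba-a1 and Hbb-bs (1.19 and 1.01). The AM libraries thus gave the highest share of called genes of the 5 tissues, 9.59%, a difference that had no test with 1 pair each.

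The overlap of AM calls with those of other tissues was as follows. Of the 368 higher genes 278 were higher in no other tissue, 63 in 1, 20 in 2, 6 in 3 and 1 in 4. Of the 180 lower genes 160 were lower in no other tissue, where 3.49% of all genes were lower for microglia, 1.07% for KCs, 0.733% for SMs and 0.532% for CMs. The genes higher in both AMs and microglia numbered 52, which is 14.1% of the AM and 17.6% of the microglia genes, and 34 were shared with KCs (9.24% and 17.9%). With SMs 26 were shared (7.07% and 20.5%) and with CMs 13 (3.53% and 25%). Over all genes tested there, the higher share was 4.98% for microglia, 3.45% for KCs, 2.07% for SMs and 0.987% for CMs, so a gene was seldom called there at all, and no test was made of the overlap.

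The genes with the highest AM ratios differed between tissues. S100a9 had log2 ratios of -0.20, 0.43, 0.16 and -0.58 in microglia, CMs, KCs and SMs, and 1.87 between the CRE-negative KC libraries, where its level was at most 3.37 CPM. Its level in SMs was 98.8 CPM in WT and 66.0 CPM in Zeb2KO. Krt8 had no UMI in microglia and SMs, 0.716 to 0.493 CPM from WT to Zeb2KO in KCs and 43.5 to 38.5 CPM in CMs, a log2 ratio of -0.17. Ceacam10 rose in microglia as in AMs (8.31), from 0.298 to 411 CPM, and was detected in 38.6% of thinned Zeb2KO microglia. Cxcr2 and Ccl2 rose in microglia as well (5.798 and 2.15). Il1f9 had ratios of 4.01 in KCs and 3.86 in SMs but stayed under 20 CPM there, at 0 in WT and 15.1 and 13.5 CPM in Zeb2KO. Id2 was higher in microglia, CMs and KCs (1.06, 1.05 and 1.27) but not in SMs (-0.15). Cpne5 had at most 0.177 CPM in the other tissues, so no fall could be seen there.

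**Figure D5:**
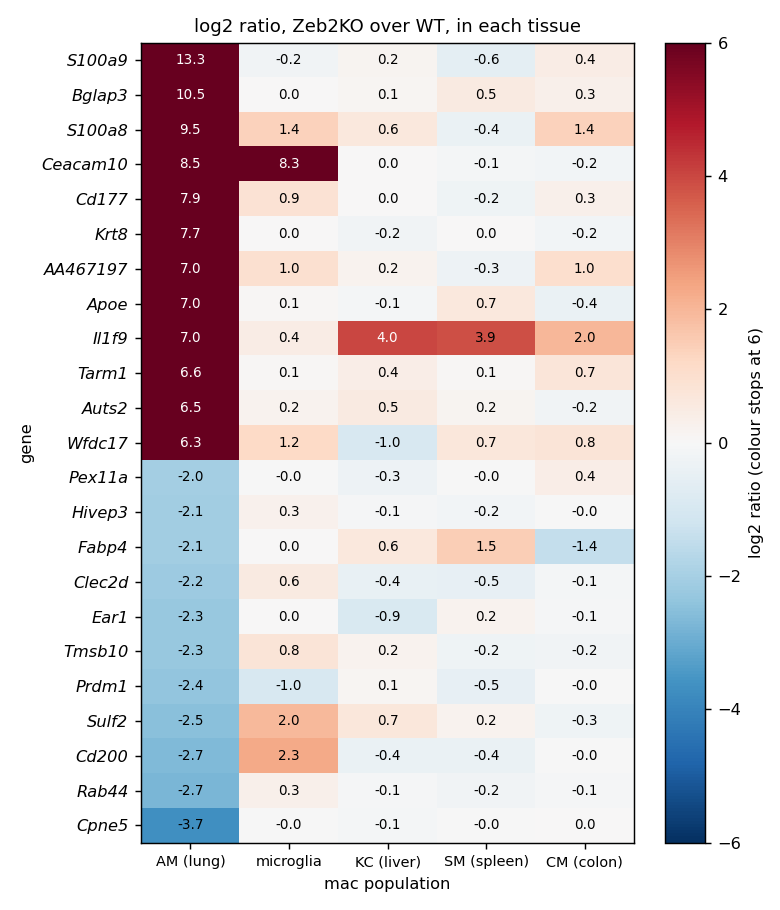
Log2 ratio of Zeb2KO over WT (colour and number) of the 12 highest and 11 of the 12 lowest AM genes in AMs, microglia, KCs, SMs and CMs, the colour stopping at 6, where a value near 0 also covers genes near 0 CPM in both libraries, such as Cpne5 outside AMs. Outside AMs the strongest colours are those of Ceacam10 in microglia (8.31) and of Il1f9 in KCs (4.01) and SMs (3.86).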

How the data were processed

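The authors processed the reads of sorted AMs with CellRanger, aligned them to mm10 with STAR, and deposited a table of raw UMI counts (whole numbers) of 27998 genes per cell barcode for each library. For their own clustering the authors set aside barcodes over 3 median absolute deviations from the median in UMIs, genes or mitochondrial share, and then low-quality, contaminating and dividing cells. The tables hold as many barcodes as the labels give cells, and 6993 WT and 6276 Zeb2KO barcodes lay within such a limit set here per library, which was an alternative. Here the counts of all barcodes were summed per library and scaled with TMM factors (1.108 for WT and 0.903 for Zeb2KO) from edgeR 4.0.16 in R 4.3.3, or by UMI totals. Log2 ratios are those of CPM plus 1. Levels carry exact Poisson, shares exact binomial and ratios exact conditional 95% intervals. For a gene at 0 in WT the fold was given with WT set to 3 UMIs, while its log2 ratio used 0 plus 1 CPM. Thinning drew 2000 UMIs per cell and left out shallower cells (578 WT and 193 Zeb2KO). No doublet caller was run and no doublets were removed. Sums weight cells with more UMIs more heavily.

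The genes named were Zeb2, Zeb1 and Zeb2os, AM markers, the 12 highest and 12 lowest log2 ratios at 50 CPM or more without mitochondrial, ribosomal, sex-linked, immunoglobulin, haemoglobin, Gm and Rik genes (171 such genes, 4 higher and 8 lower), the 5 largest rises and falls in CPM, and of each of 32 gene lists the changed members with the 4 largest ratios and the most abundant member. The members and lists were chosen with earlier results of these data known. The steps were tested on simulated counts. Alternatives were other scalings (DESeq2 1.42.0 size factors), floors, pseudocounts and sets of barcodes, and 3 were chosen after seeing the data. Gene coordinates are those of GENCODE on GRCm38/mm10 and promoter windows those of RefSeq. Of the genes the rule named, 1 is not reported here.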

Additional observations from a re-analysis of the deposited data

Results flagged for a closer look

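Several genes called in AMs were called in the opposite direction in another tissue. Over all genes, 12 were higher in AMs and lower in microglia and 7 the reverse, while 52 were higher and 15 lower in both. For SMs the opposite calls were 6 and 6, and 26 were higher and 4 lower in both. For KCs they were 2 and 1, and 34 were higher and 6 lower in both. The genes below are only those named by the rule. Each value below rests on 1 WT and 1 Zeb2KO library per tissue, and the differences between tissues were not tested.

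Cd63 was higher in AMs (log2 ratio 4.81) and lower in microglia (-2.19). The chemokine gene Ccl9 had 3.06 in AMs and -1.64 in microglia, and the lysozyme gene Lyz2 1.16 and -2.96. In the reverse direction, Tnf had -1.79 in AMs and 3.49 in microglia, Egr2 -1.82 and 1.80, Sulf2 -2.51 and 1.96, and the mitochondrial gene mt-Atp8 -1.17 and 1.05.

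Against SMs, opposite calls among the named genes included Cd14 (2.52 in AMs and -1.16 in SMs), Klf2 (1.69 and -1.15), Hspa1a (3.97 and -1.01), Hspa1b (2.91 and -1.33) and Fabp4 (-2.10 and 1.46). Apoc1 had 2.60 in AMs, -2.23 in KCs and -1.45 in SMs. The haemoglobin genes Hba-a1 (-4.93 and 1.05) and Hba-a2 (-4.31 and 1.09) also went opposite ways in AMs and SMs. The heat shock genes, Ccl9, Fabp4 and Hba-a1 also passed the call between the CRE-negative KC libraries.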

How the results depend on the processing

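No paired analysis was possible because each genotype had 1 AM library. The scaling and the floor on low levels moved the counts most. The 548 called genes became 943 with a floor of 5 CPM, 346 with 50 CPM and 1215 with none. The 368 higher genes became 636, 241 and 839, and the 180 lower genes 307, 105 and 376. With UMI totals 424 genes were lower and 37.2% of called genes were higher, and with totals that leave out the 10 genes that rose most 296 and 51.2%. Under the other alternatives the count of called genes stayed between 468 and 576.

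With totals, signalling genes gave 3 higher and 2 lower, cytokine genes 3 higher, sterol genes 1 higher and 5 lower, lipid genes 6 lower, receptor genes 5 lower, lysosomal genes 4 higher, interferon-stimulated genes 1 higher and 1 lower, dividing-cell genes 2 lower, ribosomal protein genes 2 lower and oxidative phosphorylation genes 1 lower. With DESeq2 size factors sterol genes gave 1 lower, and cyclins with kinase inhibitors 1 higher. Within 3 median absolute deviations, interferon-stimulated genes gave 1 higher, dividing-cell genes 2 lower and erythroid genes 0 lower. Without the cells with 3 or more C1q UMIs, an alternative chosen after seeing the data, MHC class II genes gave 1 higher, sterol genes 1 lower, complement genes 4 higher and monocyte and interstitial mac markers 3 higher. The cause of these shifts was not tested.

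Of the 92 named genes that were called, 87 stayed called with totals, 91 with DESeq2 size factors, 74 with a floor of 50 CPM, 78 without barcodes with 3 or more dividing-cell genes, 84 with barcodes thinned to 2000 UMIs and 85 with each barcode weighted alike. In the last 3 the identity gene Ear2 was not called. Under the other alternatives between 84 and 92 stayed called. The log2 ratio changed sign for H2-Aa (-0.13), H2-Ab1 (-0.39) and H2-Eb1 (-0.13) without the C1q cells, and for Hba-a2 (0.18) without barcodes with 3 or more dividing-cell genes, a limit that left 12.2% of WT and 12.4% of Zeb2KO UMIs. Depth limited little at these levels, but genes with few WT UMIs have wide ratios. Without replicates the spread between mice is unknown.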

Other observations

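Genes that changed in AMs and in at least 3 of the other 4 tissues in the same direction were few. Bri3bp, a membrane protein gene, was the one gene higher in all 5, with log2 ratios of 1.58 in AMs and 2.402, 1.200, 2.65 and 1.09 in microglia, CMs, KCs and SMs. The 6 others called higher in 3 tissues were Cystm1 (2.57 to 113 CPM in AMs), Id2, Itgax, Fcgr2b, the actin-severing gelsolin gene Gsn (67.1 to 199 CPM) and the nuclear lamin gene Lmnb1 (19.4 to 76.6 CPM). Among the lower genes, the haemoglobin gene Hbb-bt (25.9 to 0.115 CPM) was called in 3 other tissues, and in AMs the call was lost without the 5% of barcodes with most UMIs.

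Further genes near 0 in WT AMs reached 50 CPM in Zeb2KO AMs, and those given here were chosen after their values were seen. Hepacam2, an adhesion molecule of the immunoglobulin superfamily, rose from 0.703 to 73.8 CPM, and Grap, an adaptor of Ras signalling, from 0.397 to 61.6 CPM. The keratin gene Krt6b had no WT UMI and 62.4 CPM in Zeb2KO, at least 681-fold higher. Cyp21a1, the gene of a steroid hydroxylase, had none and 57.5 CPM, 628-fold higher by the same setting. Inhba, which encodes an activin subunit, stood at 5.65 CPM in WT and 389 CPM in Zeb2KO, and Mmp12, the macrophage elastase, at 1.86 CPM in WT and 177 CPM in Zeb2KO. Ly6c2, a monocyte surface gene, rose from 1.44 to 63.2 CPM and had a log2 ratio of 4.68 without the C1q cells.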
